A study of Mus musculus with 14 samples.

Results

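Collagen is the main protein that cartilage and bone cells secrete, and 35 genes for proteins that fold, modify, export, trim or crosslink it were followed through 5 populations of mouse forelimb bud cells. The genes were taken by name: prolyl and lysyl hydroxylases, chaperones of the endoplasmic reticulum, lysyl oxidases, procollagen proteinases and their enhancers, and factors of transcription and export. All 35 were among the 24454 genes of the count table and all 35 passed the filter on low counts, as did 15125 genes in total. The choice goes by name and role and applies no threshold on a measured value, but it was made with earlier results of these data known.

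A procollagen chain is hydroxylated on proline and lysine while it enters the endoplasmic reticulum, and proline hydroxylation makes the triple helix stable at body temperature. Chaperones such as HSP47 hold the helix until it leaves in enlarged COPII carriers. Outside the cell, proteinases remove the propeptides, fibrils form, and lysyl oxidases create the aldehydes from which crosslinks arise. Loss of many of these proteins causes brittle bones or skeletal dysplasia in humans and mice.

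The cells were sorted by FACS from forelimb buds of embryos that carry an EGFP reporter of *Sox9*, the transcription factor of chondrogenic commitment, and the RNA of pooled buds was sequenced. All libraries came from living cells (7AAD-) without the lineage antigens CD31, Ter119, CD45, EpCam, Gr1 and CD11b. S9-JAG1+ cells (Sox9-, JAG1+, SCA-1-) and S9-Pαhi cells (Sox9-, JAG1-, SCA-1-, high PDGFRα) are limb bud mesenchymal progenitors. S9+Pαhi cells are the osteochondrogenic progenitors (OCPs). S9-SCA-1+ cells (Sox9-, JAG1-, SCA-1+) are the remaining population of the stage E10.5. Chondroblasts (CBs, S9+COL2+) were sorted through the Sox9+PDGFRαhi gate at E11.5, so that stage and population cannot be told apart in any comparison with CBs. No treatment or mutation was compared, and each population had 3 libraries except S9-SCA-1+ cells with 2, numbered 2 and 3.

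The libraries held 20316583 to 29162751 counts. Levels are given as CPM, the counts relative to the scaled total of the library, and, where genes are compared with each other, as RPKM, the same relative to exon length. *Sox9* was at 411 to 625 CPM in OCPs and CBs and at 7.41 to 65.5 CPM in the Sox9- populations. *Pdgfra* was at 667 to 746 CPM in OCPs, 773 to 950 in CBs, 360 to 530 in S9-Pαhi cells and 246 to 248 in S9-JAG1+ cells. In S9-SCA-1+ cells, which the study also sorted from PDGFRα+ cells, it was at only 24.0 and 44.8 CPM. *Jag1* was at 228 to 364 CPM in S9-JAG1+ cells, 102 to 137 CPM in CBs and 10.53 to 21.3 CPM in the other libraries, and *Ly6a*, which encodes SCA-1, at 3.10 and 3.36 CPM in the SCA-1+ libraries, with no other library above 0.406 CPM. Summed over 7 markers, the RNA of myogenic cells reached 1501 to 1504 CPM in the S9-SCA-1+ libraries, with no other library above 11.4 CPM, and summed over 8 markers, chondrogenic RNA reached 2195 to 3316 CPM in CBs, 1446 to 2038 CPM in OCPs and at most 278 CPM in the others. The second OCP library, the first S9-JAG1+ library and the third S9-SCA-1+ library stood apart: *Malat1* at 348 CPM against 103 and 149.7 in the other OCP libraries, *Krt8* at 6.38 CPM against 1.26 and 1.98, and red blood cell RNA at 3294 CPM over 7 markers against 118. *Pitx1*, a hindlimb gene, was at 23.6 to 38.2 CPM in 1 library each of S9-JAG1+, S9-Pαhi and OCP. Libraries also differed in exon length trend, taken as the median log2 difference from the rest of the population for the longest minus the shortest genes. It was -0.45 in the first OCP library and 0.44 in the second, and 0.31 and -0.28 in the second and the third S9-Pαhi library. The part of these differences in the results was not tested, but results that change without the 3 libraries that stand apart are given both ways. The fit without them still holds the first OCP and the third S9-Pαhi library, with *Pitx1* at 29.45 and 38.2 CPM and the length trends above.

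Most of the 35 genes were highest in CBs and a good part was lowest in S9-JAG1+ cells. The mean of CBs was the highest of the 5 populations for 24 of the 35 genes (32.5% of all tested genes), and for 18 genes all 3 CB libraries were above all other libraries (13.3% of all tested genes). The mean of S9-JAG1+ cells was the lowest for 17 genes (24.5% of all tested genes), and for 9 genes all 3 of its libraries were below all others (7.23%). The mean of S9-Pαhi cells was the highest for none of the 35 genes (8.53% of all tested genes). Fewer cells that express a gene and less of its RNA in each cell cannot be told apart in such pools.

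**Figure D1:**
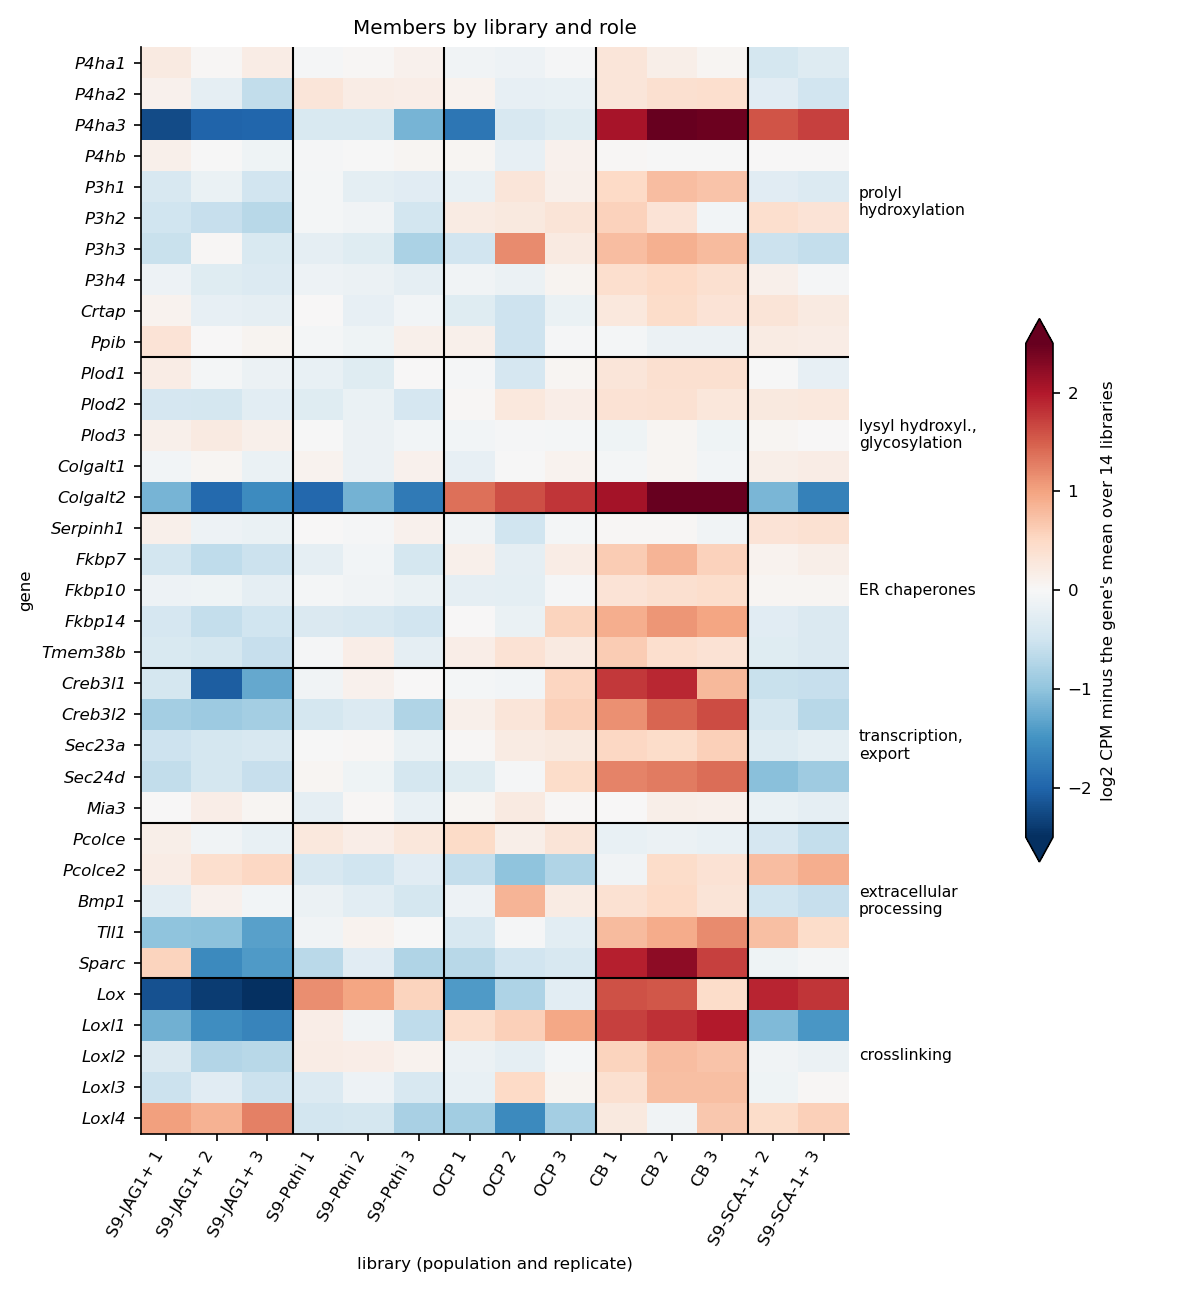
Log2 CPM of the 35 genes (rows, by role) in the 14 libraries (columns, by population), each gene centred on its mean over the 14 libraries; colours are cut at 2.5 in either direction. The 3 CB columns are red for most rows, while the rows of *P4hb*, *Ppib*, *Colgalt1*, *Plod3* and *Mia3* are pale in all columns.

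A gene was called when the adjusted p was at most 0.1 and the log2 fold change at least 1.2 in either direction. In the joint test of the 5 populations, the p limit was met by 32 of the 35 genes (74.8% of all tested genes), and 15 were called because their population means also spanned at least 1.2 on the log2 scale (29.2% of all tested genes). The 3 genes that missed the p limit were *P4hb*, *Ppib* and *Colgalt1*, with adjusted p of 0.999, 0.183 and 0.291. The 15 called genes came from all roles: 4 of 5 crosslinking enzymes, 3 of 5 genes of transcription and export and 3 of 5 of extracellular processing. They also included 2 of 5 of the chaperone group, 2 of 10 of prolyl hydroxylation and 1 of 5 of lysyl hydroxylation and glycosylation. The chaperone group holds *Tmem38b* as well, which encodes a channel.

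CBs against the mean of the other 4 populations gave the longest list. Called higher were 9 genes (11.0% of all tested genes) and called lower none (1.71%): *P4ha3*, *Colgalt2*, *Fkbp14*, *Creb3l1*, *Creb3l2*, *Sec24d*, *Sparc*, *Lox* and *Loxl1*. The median log2 fold change of the 35 genes was 0.55, against 0.05 for all tested genes. Without the limit on the fold change, 27 were higher (35.7% of all tested genes) and 1 lower (29.4%), the latter being *Pcolce*. Without the 3 libraries that stand apart the number called was 9 again.

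S9-JAG1+ cells were mostly low. Against the other 4 populations, 6 genes were lower (*P4ha3*, *Colgalt2*, *Creb3l1*, *Tll1*, *Lox* and *Loxl1*; 7.70% of all tested genes) and only *Loxl4* was higher (2.88%). The median log2 fold change was -0.41, against -0.01 for all tested genes. *Sparc* joined the lower genes once the first S9-JAG1+ library was left out. For S9-Pαhi cells, *Colgalt2* was the 1 gene called, and it was lower (2.31% of all tested genes lower, 1.53% higher). In OCPs, *Colgalt2* was higher (3.37%) and *Loxl4* lower (1.64%). In S9-SCA-1+ cells, *Lox* and *P4ha3* were higher (4.46%), and *Colgalt2* and *Loxl1* lower (6.80%).

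Along the order in which the study set the populations, the changes came at different steps. From S9-JAG1+ to S9-Pαhi cells, *Lox*, *Loxl1* and *P4ha3* were higher (4.42% of all tested genes) and *Loxl4* lower (2.58%). From S9-Pαhi cells to OCPs, *Colgalt2* was higher (3.48%) and *Lox* lower (1.36%). From OCPs to CBs, 7 genes were higher and none lower (6.60% and 1.16%): *P4ha3*, *Creb3l1*, *Sec24d*, *Tll1*, *Sparc*, *Lox* and *Loxl4*. The median log2 fold changes of these 3 steps were 0.09, 0.09 and 0.50, against -0.00, 0.02 and -0.02 for all tested genes. Without the 3 libraries that stand apart, *Sec24d* (1.16) was no longer called from OCPs to CBs, *Creb3l1* (1.76) and *Tll1* (1.21) were also higher from S9-JAG1+ to S9-Pαhi cells, and against the other 4 populations *P4ha3* (-1.22) was lower in OCPs and *Sec24d* (-1.24) in S9-SCA-1+ cells. The steps share populations and are therefore not independent.

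**Figure D2:**
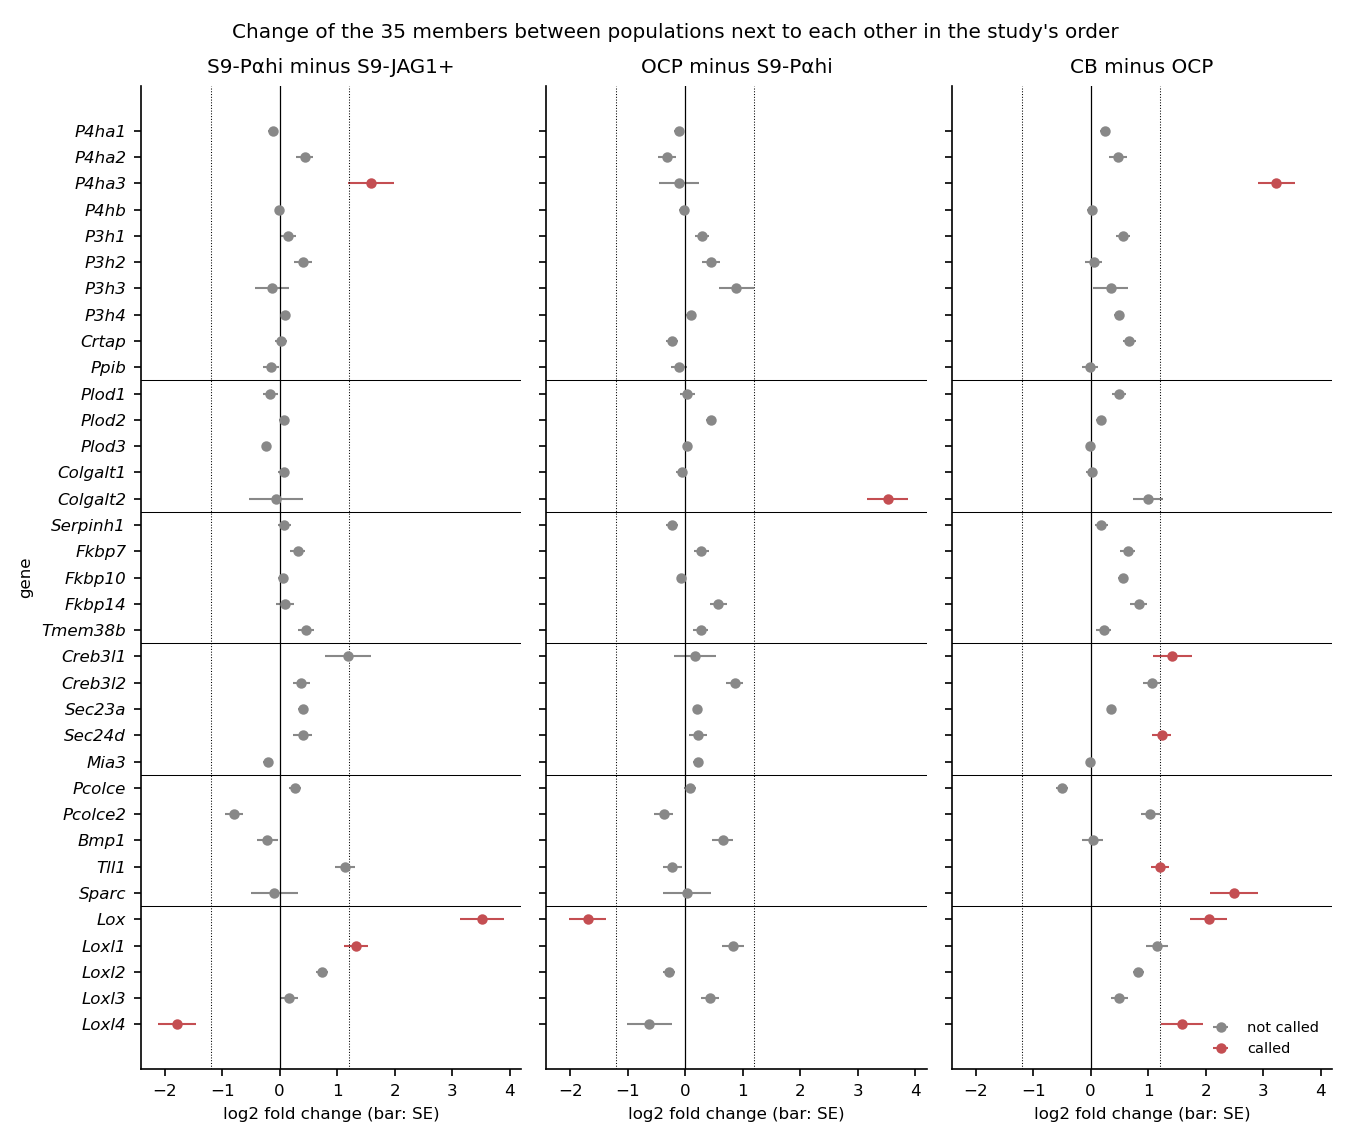
Log2 fold change of the 35 genes (dots) with its standard error (bars) in the 3 comparisons of populations that follow each other; red marks called genes and dotted lines the limit of 1.2 in either direction. From OCPs to CBs, 31 of 35 dots are right of 0 (48.4% of all tested genes).

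In the role of prolyl hydroxylation, the scarcest subunit of prolyl 4-hydroxylase was called and its other subunits were not. Prolyl 4-hydroxylase is built of catalytic α subunits and β subunits. *P4ha1*, *P4ha2* and *P4ha3* encode alternative α subunits, and *P4hb* the β subunit, which is also protein disulfide isomerase. *P4ha3* was at 0.557, 0.670 and 0.674 CPM in the S9-JAG1+ libraries, 2.20, 2.22 and 1.25 in S9-Pαhi cells, 0.771, 2.19 and 2.35 in OCPs, 12.3, 21.4 and 16.2 in CBs and 8.78 and 9.72 in S9-SCA-1+ cells. All CB libraries were above all S9-SCA-1+ libraries, and these were above all remaining libraries. The log2 fold change was 3.23 ± 0.32 (SE, adjusted p = 1.09e-05) from OCPs to CBs, 1.58 ± 0.40 (SE, adjusted p = 0.0115) from S9-JAG1+ to S9-Pαhi cells and 1.92 ± 0.25 (SE, adjusted p = 3.56e-05) for S9-SCA-1+ cells against the others. *P4ha1* ranged from 61.5 to 102 CPM and *P4ha2* from 11.1 to 22.9 CPM over the 14 libraries, and neither was called in any comparison. *P4hb* was at 529 to 665 CPM, with population means that spanned 0.03 on the log2 scale.

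The mixture of α subunits differed between the populations. On the RPKM scale, *P4ha3* made up 0.939 ± 0.167% (mean ± SD, n = 3) of the summed α subunits in S9-JAG1+ cells, 2.68 ± 0.816% in S9-Pαhi cells and 2.83 ± 1.40% in OCPs. In CBs it made up 17.9 ± 4.36% (n = 3), and in S9-SCA-1+ cells 15.7 ± 0.795% (n = 2). The sum itself was 39.2 ± 1.81 RPKM in CBs and between 25 and 29.9 RPKM, as means, in the other populations. *P4ha1* remained the largest part everywhere, with 54.3% at the least in a CB library. Since *P4hb* did not follow, its ratio to the summed α subunits was 6.19 ± 0.296 in CBs and between 8.11 and 9.73, as means, elsewhere.

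Prolyl 3-hydroxylation modifies single prolines, by a complex of P3H1, CRTAP and cyclophilin B (*Ppib*) in the case of type I and II collagen. *P3h1* was at 59.7 to 71.8 CPM in CBs and at 30.1 to 51.9 CPM elsewhere, without overlap. From OCPs to CBs, *P3h1* had a log2 fold change of 0.57 ± 0.12 (SE, adjusted p = 0.00445) and *Crtap*, which spanned 24.4 to 48.1 CPM, one of 0.68 ± 0.11 (SE, adjusted p = 0.000627), both under the fold limit. *Crtap* per *P3h1*, in RPKM, was 1.25 ± 0.298 in OCPs and 1.32 ± 0.0591 in CBs, below 1.94 ± 0.347 in S9-JAG1+ cells (n = 3 each). *Ppib* spanned 130.5 to 239.6 CPM over the 14 libraries and missed the p limit in the joint test. *Ppib* per *P3h1*, in RPKM, was 9.18 ± 1.28 in CBs and 22.4 ± 4.39 in S9-JAG1+ cells (n = 3 each). A gene on the other strand overlaps 25% of the *Ppib* exon bases, and 8.48% of its 50-base words occur in other genes, so its level is less certain.

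*P3h3*, which encodes a relative of P3H1 that forms a complex with lysyl hydroxylase 1 and the product of *P3h4*, was the second called gene of this role. It was at 57.2, 86.2 and 64.7 CPM in S9-JAG1+ cells, 72.5, 68.2 and 48.8 in S9-Pαhi cells, 60.4, 193 and 98.3 in OCPs, 144, 156 and 147 in CBs and 57.8 and 55.7 in S9-SCA-1+ cells. The second OCP library, which stands apart, exceeded all CB libraries, and the other OCP libraries were below them. The joint range was 1.39 on the log2 scale (adjusted p = 0.00364), but no single comparison was called. From OCPs to CBs the log2 fold change was 0.35 ± 0.30 (SE, adjusted p = 0.419) with that library and 0.87 (adjusted p = 0.00531) without it. *P3h4* ranged from 32.8 to 58.6 CPM with all CB libraries on top, and *P3h2* from 7.97 to 19.4 CPM with all S9-JAG1+ libraries at the bottom. An antisense gene overlaps 28.4% of the *P3h2* exon bases.

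The lysyl hydroxylases showed a smaller shift. *Plod1*, *Plod2* and *Plod3* encode LH1, which acts on the helix, LH2, which acts on telopeptides, and LH3, which also glycosylates. *Plod1* ranged from 42.5 to 75.8 CPM, *Plod2* from 60.01 to 105 CPM and *Plod3* from 70.3 to 90.4 CPM, and none was called. *Plod3* was highest in S9-JAG1+ cells, where all 3 libraries (84.4 to 90.4 CPM) were above all others (at most 80.8 CPM). Antisense exons overlap 11.7% of the *Plod3* exon bases, so its level is less certain. On the RPKM scale, *Plod2* made up 27.8 ± 2.27% of the 3 genes in S9-JAG1+ cells and 37.7 ± 1.16% in CBs, and *Plod3* 43.3 ± 1.99% and 31.2 ± 0.841% (n = 3 each). The mean share of *Plod2* was 31.8% in S9-Pαhi cells, 38.5% in OCPs and 39.2% in S9-SCA-1+ cells, so it was not highest in CBs. That of *Plod3* was 40.1%, 36.1% and 36.3% in the same order. From S9-Pαhi cells to OCPs, *Plod2* passed the p limit but not the fold limit (log2 fold change 0.45 ± 0.09 (SE, adjusted p = 0.004)).

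The collagen galactosyltransferases add galactose to hydroxylysine, and only the minor one was called. *Colgalt2* was at 0.343, 0.168 and 0.238 CPM in S9-JAG1+ cells, 0.163, 0.339 and 0.199 in S9-Pαhi cells and 0.350 and 0.214 in S9-SCA-1+ cells, which corresponds to 4 to 10 counts a library. In OCPs it was at 2.35, 2.81 and 3.15 CPM and in CBs at 3.90, 6.60 and 6.13 CPM. Every OCP and CB library was above every library of the other populations, and every CB library above every OCP library. The log2 fold change from S9-Pαhi cells to OCPs was 3.52 ± 0.35 (SE, adjusted p = 2.08e-05), a fitted value that depends on the few counts in S9-Pαhi cells. From OCPs to CBs it was 1.0 ± 0.26 (SE, adjusted p = 0.0116), under the fold limit. *Colgalt1* was at 106 to 141 CPM in all libraries and made up 96.6 ± 0.808% of the pair in CBs (n = 3, RPKM scale) and at least 98.2% of it, as means, in the other populations.

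**Figure D3:**
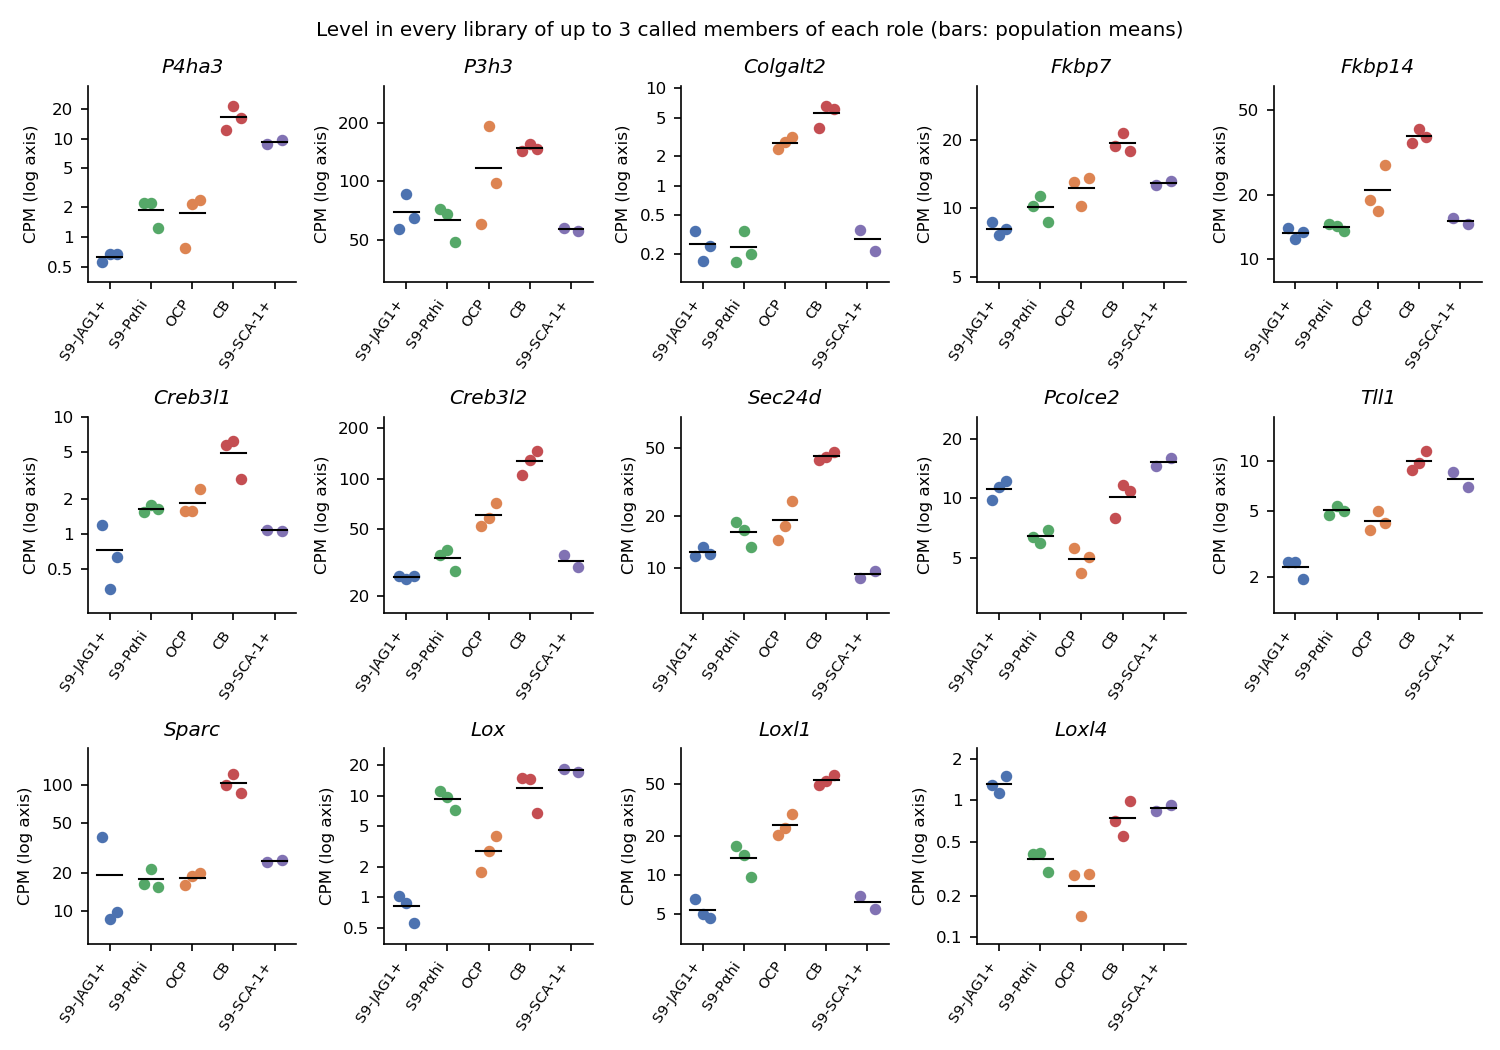
CPM on a log axis of the 14 genes that were called in the joint test and have the widest ranges of their role (up to 3 each), in 14 libraries (dots) of 5 populations (colours), with population means (bars). CBs are on top for most genes, *Lox* dips in OCPs, and *Loxl4* is highest in S9-JAG1+ cells.

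Of the chaperones, 2 FKBP isomerases were called, and the abundant HSP47 passed the p limit but not the fold limit. *Serpinh1*, which encodes HSP47, had the highest level of the 35 genes (mean 348 RPKM) and ranged from 598 to 1102 CPM. Both S9-SCA-1+ libraries (1070 and 1102 CPM) were above all others, with a log2 fold change of 0.42 ± 0.10 (SE, adjusted p = 0.0038), and the lowest value was that of the second OCP library. *Fkbp14*, whose product is a peptidyl-prolyl isomerase for type III collagen among others, was at 14.04, 12.4 and 13.3 CPM in S9-JAG1+ cells, 14.6, 14.3 and 13.5 in S9-Pαhi cells, 18.9, 16.8 and 27.6 in OCPs, 35.2, 40.6 and 37.4 in CBs and 15.5 and 14.7 in S9-SCA-1+ cells. CBs did not overlap with any other population. Their log2 fold change against the others was 1.27 ± 0.11 (SE, adjusted p = 3.27e-07), near the limit, and it was 1.197 and not called without the second OCP library, or 1.19 without the second CB library.

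*Fkbp7* encodes a smaller isomerase of the same compartment. It was at 8.69, 7.63 and 8.17 CPM in S9-JAG1+ cells, 10.2, 11.4 and 8.72 in S9-Pαhi cells, 13.02, 10.2 and 13.6 in OCPs, 18.7, 21.4 and 17.8 in CBs and 12.7 and 13.1 in S9-SCA-1+ cells. The gene was called in the joint test alone, with a range of 1.24 on the log2 scale (adjusted p = 2e-05) that fell to 1.13 without the second CB library and to 1.15 without the second S9-JAG1+ library. *Fkbp10*, which encodes FKBP65 and works with LH2, was at 118 to 128 CPM in CBs and at 79.6 to 97.2 CPM elsewhere, a separation without overlap that stayed under the fold limit (log2 fold change 0.48 ± 0.06 (SE, adjusted p = 8.25e-06)). *Tmem38b*, which encodes the potassium channel TRIC-B of the endoplasmic reticulum, ranged from 5.43 to 12.7 CPM. *Fkbp10* and *P3h4* lie next to each other on chromosome 11 (chr11:100415694-100424840 and chr11:100408467-100414716, GRCm38), 977 bases apart.

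Of the 5 genes of transcription and export, 3 were called higher in CBs against the other 4 populations (11.0% of all tested genes), and 4 passed the p limit alone, with *Sec23a* (35.7%). *Creb3l1* (OASIS) and *Creb3l2* (BBF2H7) encode transcription factors that are cut out of the endoplasmic reticulum membrane; BBF2H7 is known to drive export genes in cartilage, *Sec23a* among them. *Creb3l2* was at 26.3, 25.1 and 26.2 CPM in S9-JAG1+ cells, 35.1, 37.3 and 27.9 in S9-Pαhi cells, 51.9, 58.1 and 71.9 in OCPs, 105, 129 and 146 in CBs and 35.05 and 29.4 in S9-SCA-1+ cells. The 3 OCP libraries were above all earlier progenitor and S9-SCA-1+ libraries and below all CB libraries. The log2 fold change was 0.86 ± 0.15 (SE, adjusted p = 0.00145) from S9-Pαhi cells to OCPs and 1.06 ± 0.14 (SE, adjusted p = 0.000138) from OCPs to CBs, both under the fold limit, and 1.81 ± 0.10 (SE, adjusted p = 9.84e-09) for CBs against the others.

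*Creb3l1* was far scarcer (mean 0.939 RPKM, against 17.3 for *Creb3l2*). It was at 1.199, 0.335 and 0.634 CPM in S9-JAG1+ cells, 1.54, 1.77 and 1.64 in S9-Pαhi cells, 1.58, 1.57 and 2.42 in OCPs, 5.75, 6.30 and 2.94 in CBs and 1.08 and 1.07 in S9-SCA-1+ cells. The third CB library was lower than the other CB libraries but still above all others. CBs were higher than OCPs with a log2 fold change of 1.42 ± 0.34 (SE, adjusted p = 0.00816), and S9-JAG1+ cells lower than the other populations with -1.48 ± 0.34 (SE, adjusted p = 0.00298). The latter was -1.13 and not called without the second S9-JAG1+ library, which holds 8 counts.

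SEC23A and SEC24D form part of the inner COPII coat, and TANGO1 (*Mia3*) fits the carrier to procollagen. *Sec24d* was at 11.7, 13.2 and 12.01 CPM in S9-JAG1+ cells, 18.6, 16.7 and 13.3 in S9-Pαhi cells, 14.6, 17.5 and 24.6 in OCPs, 42.5, 44.1 and 47.4 in CBs and 8.71 and 9.62 in S9-SCA-1+ cells. CBs were above and S9-SCA-1+ cells below all other libraries. The log2 fold change from OCPs to CBs was 1.24 ± 0.16 (SE, adjusted p = 0.000108). It was not called, at 1.08, 1.15 and 1.17, without the first OCP, the second OCP or the third CB library, nor, at 1.16, without the 3 libraries that stand apart; against all other populations it was 1.71 ± 0.12 (SE, adjusted p = 4.96e-08). Among the 4 SEC24 paralogues, *Sec24d* made up 13.1 ± 0.745% in CBs, 5.64 ± 1.23% in OCPs and 3.64 ± 0.176% in S9-JAG1+ cells (n = 3 each, RPKM scale), while the sum of the 4 was between 82.0 and 88.3 RPKM, as means, in all populations.

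*Sec23a* was at 174 to 190.5 CPM in CBs, at 129 to 149.9 CPM in OCPs, at 113 to 128 CPM in S9-Pαhi cells and at 88.3 to 95.9 CPM in S9-JAG1+ cells. These 4 ranges did not overlap, but the log2 fold change of CBs against the others stayed under the limit (0.68 ± 0.06 (SE, adjusted p = 5.07e-07)). Its share of the pair *Sec23a* and *Sec23b* was 38.9 ± 1.39% in S9-JAG1+ cells, 49.5 ± 3.38% in S9-Pαhi cells, 56.1 ± 5.61% in OCPs and 63.1 ± 0.451% in CBs (n = 3 each, RPKM scale). *Mia3* was at 124 to 169 CPM in all libraries and the least variable of this role.

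The promoters of this role were read because CREB3L factors bind elements that resemble the cyclic AMP response element. RefSeq promoters (GRCm38, 250 bases before to 50 after a transcript start) were given for 23 of the 35 genes; *P3h2*, *P3h4*, *Plod2*, *Colgalt2*, *Fkbp10*, *Tmem38b*, *Creb3l1*, *Bmp1*, *Lox*, *Loxl1*, *Loxl2* and *Loxl3* had no entry. The 6 letters TGACGT, on either strand, were found for 6 of the 23 genes (*Colgalt1*, *Fkbp7*, *Creb3l2*, *Sec23a*, *Sec24d* and *Mia3*) and for 8.37% of 27025 genes in all. Shown are 30-base windows, 5′ to 3′ on the gene's strand, of those that lie before the start, with the 6 letters in capitals; the start is that of the promoter entry, which for *Sec24d* lies inside the RefSeq gene record (from 123264801). They are shown for genes of export and their factor and for the called *Fkbp7*:
Sec24d, chr3:123267458-123267487, + strand: cgcccgggcgccTGACGTggcactagcaac
Mia3, chr1:183369634-183369663, - strand: ctgagcccttgcTGACGTgtcactcgcagc
Creb3l2, chr6:37442327-37442356, - strand: ggcgttccccagTGACGTaaaagaccctct
Fkbp7, chr2:76673098-76673127, - strand: cttggacctttgTGACGTaggacaatgcct

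In *Sec24d* and *Mia3* the letters continue to TGACGTG and so overlap with ACGTG, the core of the hypoxia response element, which was found for 11 of the 23 genes and for 21.8% of all. CCACG, a part of the endoplasmic reticulum stress element that overlaps in the opposite sense with ACGTG, was found for 15 of the 23 genes and for 35.5% of all. Of the 6 genes with TGACGT, *Sec24d* and *Creb3l2* were called higher in CBs, *Fkbp7* in the joint test alone, and *Sec23a*, *Mia3* and *Colgalt1* in no test. The letters describe the sequence and not a site of binding.

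Among the extracellular proteins, *Sparc* stood out. It encodes osteonectin, a collagen-binding protein that also acts as a chaperone in the secretory pathway. *Sparc* was at 38.7, 8.63 and 9.71 CPM in S9-JAG1+ cells, 16.4, 21.4 and 15.5 in S9-Pαhi cells, 16.02, 18.8 and 19.8 in OCPs, 99.99, 123 and 85.6 in CBs and 24.4 and 25.1 in S9-SCA-1+ cells. CBs were above all other libraries, and the first S9-JAG1+ library, which stands apart, was far above the others of its population. CBs were higher than OCPs with a log2 fold change of 2.5 ± 0.42 (SE, adjusted p = 0.0007). S9-JAG1+ cells had a log2 fold change of -0.67 ± 0.34 (SE, adjusted p = 0.129) against the other populations, and of -1.72 (adjusted p = 3.88e-06) without their first library.

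The C-propeptide is removed by BMP1 and its relatives, of which *Tll1* encodes tolloid-like 1. *Tll1* was at 2.48, 2.47 and 1.94 CPM in S9-JAG1+ cells, 4.76, 5.42 and 5.03 in S9-Pαhi cells, 3.85, 4.99 and 4.23 in OCPs, 8.85, 9.72 and 11.6 in CBs and 8.64 and 7.05 in S9-SCA-1+ cells. S9-JAG1+ libraries were below all others and CBs above all others, the latter by little (8.85 against 8.64 CPM). The log2 fold change from OCPs to CBs was 1.21 ± 0.16 (SE, adjusted p = 0.000116), which lies at the limit and was lost in 7 of the alternatives: DESeq2 size factors and test (both 1.19) and the fits without the third CB (1.07), the first or the third OCP (1.13 and 1.17) or the second or the third S9-JAG1+ library (1.184 and 1.185). S9-JAG1+ cells had -1.49 ± 0.15 (SE, adjusted p = 2.43e-06) against the other populations. *Bmp1* was at 162 to 439 CPM and was not called; its highest value was that of the second OCP library, against 223 and 279 CPM in the others. *Tll1* made up between 0.901 and 4.06%, as means, of the pair in all populations (RPKM scale).

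The enhancers of the C-proteinase differed in opposite directions from OCPs to CBs. *Pcolce*, the major one, was at 64.3 to 66.2 CPM in CBs and at 81.6 to 103 CPM in OCPs, a fall by 0.50 on the log2 scale (SE 0.10, adjusted p = 0.0028) that did not reach the fold limit. *Pcolce2* was at 9.76, 11.48 and 12.2 CPM in S9-JAG1+ cells, 6.42, 5.98 and 6.97 in S9-Pαhi cells, 5.60, 4.23 and 5.06 in OCPs, 8.00, 11.7 and 10.96 in CBs and 14.6 and 16.1 in S9-SCA-1+ cells. OCPs were the lowest and S9-SCA-1+ cells the highest, both without overlap. It was called in the joint test alone, with a range of 1.62 on the log2 scale (adjusted p = 9.48e-06), and from OCPs to CBs it had a log2 fold change of 1.04 ± 0.16 (SE, adjusted p = 0.000401). *Pcolce2* made up 4.25 ± 0.132% of the pair in OCPs and 11.45 ± 1.86% in CBs (n = 3 each), and 19.8 ± 2.51% in S9-SCA-1+ cells (n = 2, RPKM scale). Part of the *Pcolce* exon bases (2.93%) is shared with *Fbxo24*.

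The lysyl oxidases had different courses. LOX and the LOX-like proteins oxidize lysine in collagen and elastin, the former being needed for collagen crosslinks and LOXL1 for elastic fibres. *Lox* was at 1.03, 0.880 and 0.555 CPM in S9-JAG1+ cells, 11.1, 9.85 and 7.22 in S9-Pαhi cells, 1.78, 2.85 and 4.05 in OCPs, 14.9, 14.5 and 6.75 in CBs and 18.5 and 17.1 in S9-SCA-1+ cells. It was the 1 gene of the 35 that was called in all 3 steps: higher from S9-JAG1+ to S9-Pαhi cells (3.52 ± 0.38 (SE, adjusted p = 1.25e-05)), lower in OCPs (-1.69 ± 0.32 (SE, adjusted p = 0.00329)) and higher again in CBs (2.05 ± 0.32 (SE, adjusted p = 0.000417)). The third CB library (6.75 CPM) lay below all S9-Pαhi libraries, and S9-SCA-1+ cells were above all others (log2 fold change 2.13 ± 0.25 (SE, adjusted p = 1.1e-05)).

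*Loxl1* had another course. It was at 6.51, 5.07 and 4.72 CPM in S9-JAG1+ cells, 16.8, 14.2 and 9.71 in S9-Pαhi cells, 20.4, 22.9 and 29.7 in OCPs, 49.8, 53.4 and 59.6 in CBs and 6.96 and 5.49 in S9-SCA-1+ cells. From S9-JAG1+ cells over S9-Pαhi cells and OCPs to CBs each population was above the one before without overlap. The first step was called (1.33 ± 0.21 (SE, adjusted p = 0.000322)) but fell to 1.15 without the first S9-Pαhi library, and the others had log2 fold changes of 0.84 ± 0.19 (SE, adjusted p = 0.0107) and 1.16 ± 0.19 (SE, adjusted p = 0.000525). CBs against the other populations had 2.40 ± 0.13 (SE, adjusted p = 7.9e-09). S9-SCA-1+ cells, highest for *Lox*, were low for *Loxl1* (-1.51 ± 0.21 (SE, adjusted p = 5.08e-05)).

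*Loxl4* was the scarcest of the 35 genes (mean 0.128 RPKM) and the only called gene that was highest in S9-JAG1+ cells. It was at 1.28, 1.13 and 1.51 CPM there, 0.407, 0.414 and 0.299 in S9-Pαhi cells, 0.284, 0.143 and 0.289 in OCPs, 0.706, 0.547 and 0.982 in CBs and 0.840 and 0.926 in S9-SCA-1+ cells. The OCP libraries held 7, 3 and 8 counts, the second of which is at the floor that a chance lack of reads sets. They were below all others, but by little against S9-Pαhi cells (0.289 against 0.299 CPM), whose libraries held 10, 11 and 6 counts. From S9-Pαhi cells to OCPs the log2 fold change was -0.62 ± 0.40 (SE, adjusted p = 0.331) and was not called. The log2 fold change was -1.78 ± 0.33 (SE, adjusted p = 0.00136) from S9-JAG1+ to S9-Pαhi cells and 1.59 ± 0.36 (SE, adjusted p = 0.00562) from OCPs to CBs.

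*Loxl2* and *Loxl3* had narrower ranges than *Lox*, *Loxl1* and *Loxl4*. *Loxl2* ranged from 37.6 to 107 CPM with CBs on top and S9-JAG1+ cells at the bottom, without overlap, and was called in the joint test alone (range 1.28, adjusted p = 8.77e-07, with 1.17 without the second and 1.197 without the third S9-JAG1+ library, both under the limit). Of its 50-base words, 45% also occur in other genes, most of them in *Gm21451*, so its level is uncertain. *Loxl3* ranged from 17.8 to 43.9 CPM, with a joint range of 1.09 under the limit, and had a log2 fold change of 0.80 ± 0.12 (SE, adjusted p = 5.55e-05) in CBs against the others.

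**Figure D4:**
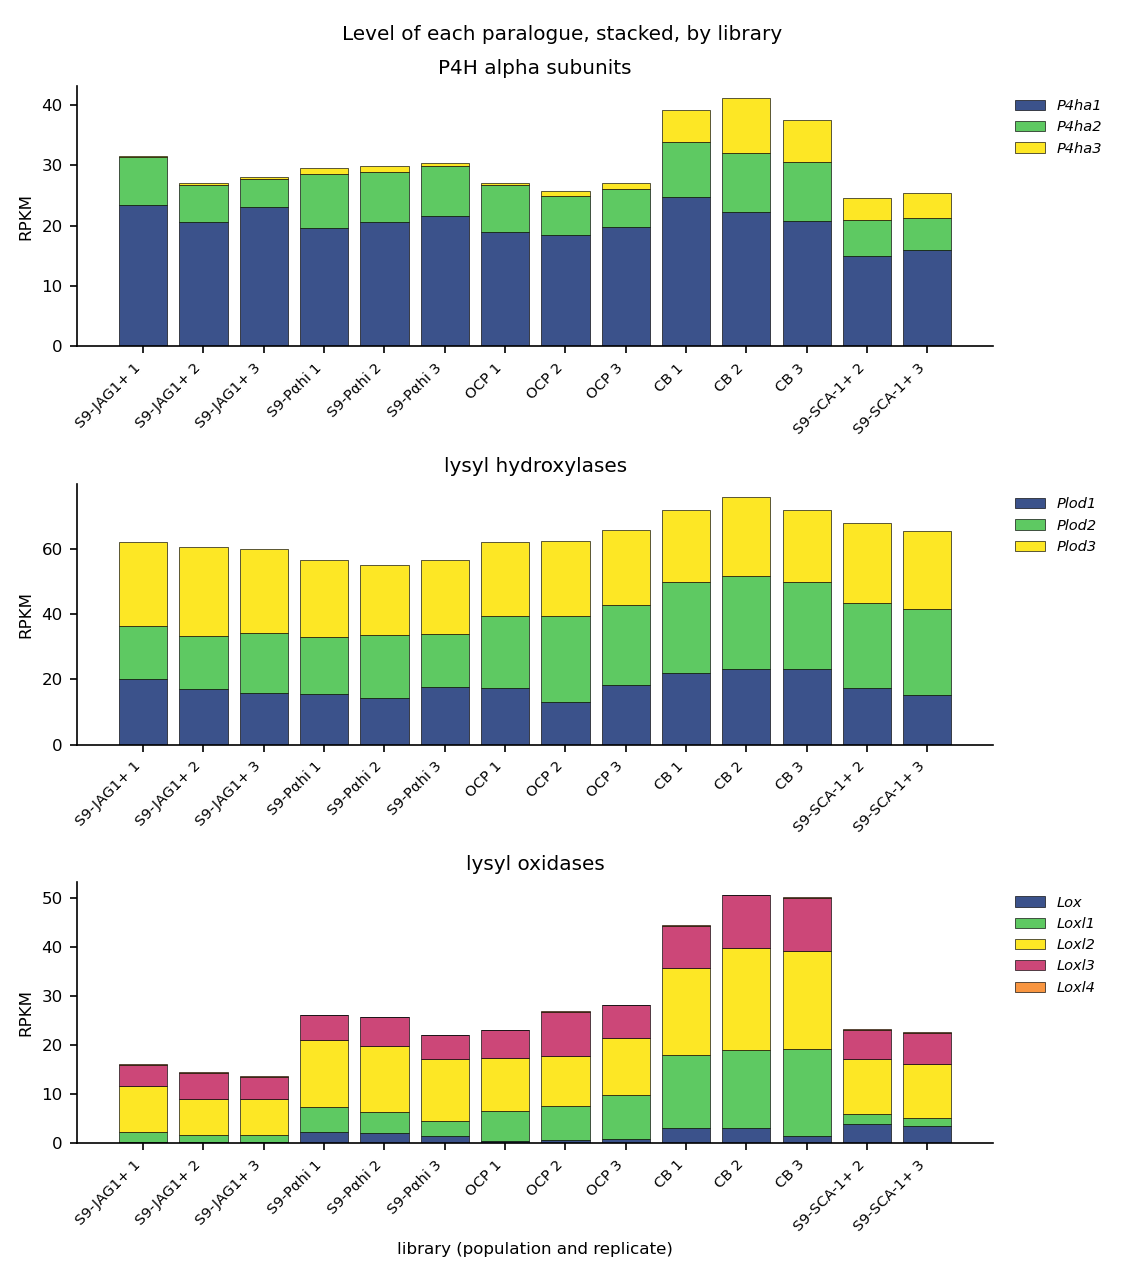
RPKM of the α subunits of prolyl 4-hydroxylase, the lysyl hydroxylases and the lysyl oxidases, stacked by gene, in each of the 14 libraries. *P4ha3* is visible in CBs and S9-SCA-1+ cells. The stack of lysyl oxidases, which includes the uncertain level of *Loxl2*, has a mean of 14.7 RPKM in S9-JAG1+ cells and of 48.4 RPKM in CBs.

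Summed over the 5 lysyl oxidases, the level was 14.7 ± 1.26 RPKM in S9-JAG1+ cells, 24.6 ± 2.23 in S9-Pαhi cells, 25.98 ± 2.68 in OCPs, 48.4 ± 3.45 in CBs (n = 3 each) and 23.0 ± 0.387 in S9-SCA-1+ cells (n = 2). The libraries of S9-Pαhi cells, OCPs and S9-SCA-1+ cells overlapped. The composition behind these like sums differed. *Lox* made up 7.67 ± 0.998% in S9-Pαhi cells, 2.22 ± 0.674% in OCPs and 15.7 ± 0.592% in S9-SCA-1+ cells. *Loxl1* made up 16.4 ± 3.08%, 27.9 ± 3.24% and 8.11 ± 1.23% in the same order, and 33.6 ± 2.01% in CBs. *Loxl2* was the largest part in each population, with means of 40.3 to 54.3%. Its level is uncertain because of the words it shares with other genes, and so are the sums and shares of this family.

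Across the 35 genes, the fold limit was met more by scarce than by abundant genes. Of the 15 genes with a mean of at least 20 RPKM, 12 passed the p limit in the joint test and 1 was called (*P3h3*). Of the 8 genes under 5 RPKM, 7 were called (all but *Tmem38b*). Over all levels, 74.8% of all tested genes passed the p limit and 29.2% were called. Their shares within these ranges of level were not computed, so the counts cannot be read as a trait of the 35 genes. The median level was 5.46 RPKM for the 15 called genes and 22.4 RPKM for the 20 others. The mean log2 RPKM and the range of the population means had a Spearman's rho of -0.763 over the 35 genes. Over all 15125 tested genes, rho was -0.504 with the log2 of the mean RPKM as the level. Both values are negative, but they rest on unlike measures of level, so their sizes cannot be compared directly. The genes share the same 14 libraries, and scarce genes also have the larger counting error. In several families the gene called was the scarce one (*P4ha3* beside *P4ha1*, *Colgalt2* beside *Colgalt1*, *Tll1* beside *Bmp1*), whereas *P3h3* and *Creb3l2*, the most abundant of their kind, were called as well.

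**Figure D5:**
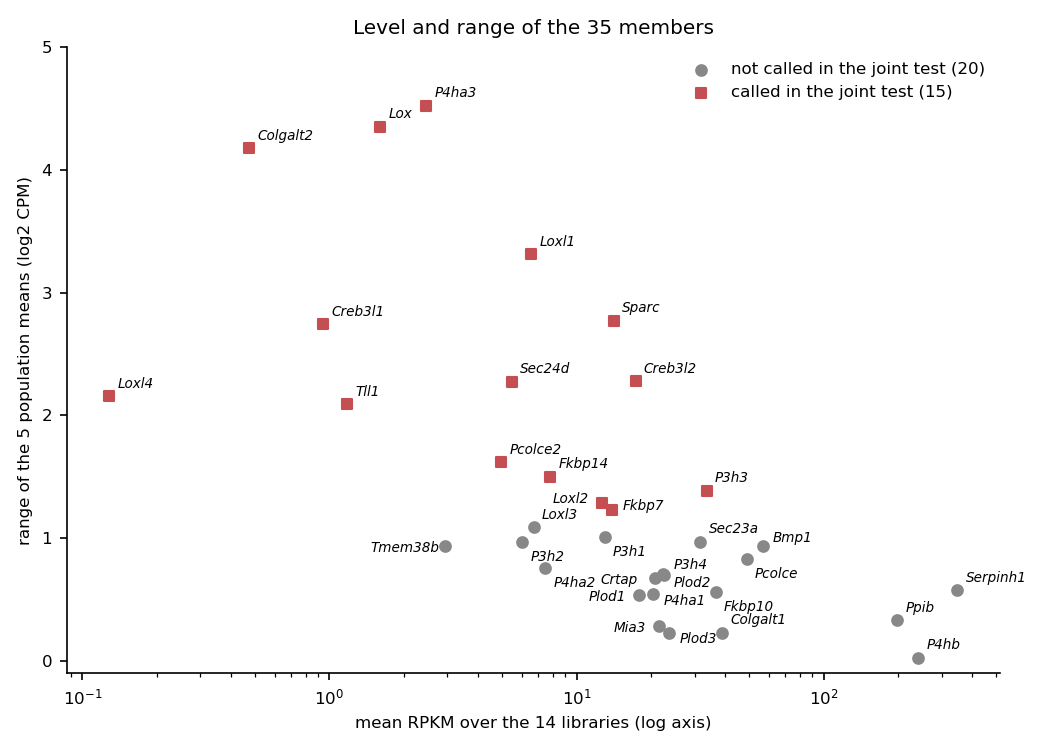
Mean level of the 35 genes over the 14 libraries (RPKM, log axis) against the range of the 5 population means (log2 CPM); squares are the 15 genes called in the joint test. *Serpinh1*, *P4hb* and *Ppib* are at the right with ranges of at most 0.58, and *P4ha3*, *Lox* and *Colgalt2* at the upper left with ranges above 4.

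The main substrates are the fibrillar collagens. All 11 of their chains were called in the joint test (29.2% of all tested genes). In CBs 6 of the 11 were higher than in the other populations (11.0%) and none lower (1.71%), with a median log2 fold change of 1.21, and from OCPs to CBs 1 of 11 was higher (6.60%), with a median of 0.62. *Col2a1*, the chain of cartilage collagen, was at 25.9 ± 4.36 CPM in S9-JAG1+ cells, 89.8 ± 26.9 in S9-Pαhi cells, 989.5 ± 271 in OCPs, 1537 ± 315 in CBs (n = 3 each) and 164 ± 5.88 in S9-SCA-1+ cells (n = 2). *Col11a2* was at 7.81 ± 4.31 CPM in OCPs and 45.2 ± 12.5 in CBs, and at 1.88 to 3.79 CPM, as means, elsewhere.

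Of 36 other genes of procollagen folding, export and trimming, 34 were tested and 3 were called in the joint test (29.2% of all tested genes): *Adamts2* and *Adamts14*, which encode proteinases of the N-propeptide, and *Kdelr3*, which encodes a retrieval receptor for proteins of the endoplasmic reticulum. For CBs against the others, 2 of the 34 were higher (11.0%) and none lower (1.71%), and without the limit on the fold change 12 were higher (35.7%) and 14 lower (29.4%), with a median log2 fold change of -0.12. *Kdelr3* was at 10.3 ± 1.32 CPM in CBs and at 2.08 to 2.73 CPM, as means, in the other populations. *Adamts2* was at 0.107 and 0.420 CPM in the 2 SCA-1+ libraries, below the means of 1.59 to 3.33 CPM in the other populations.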

How the data were processed

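Poly(A)+ RNA of 14 libraries was sequenced as single reads. The authors aligned the reads to mm10 with STAR, kept 1 position for reads that fit several, and used qCount of QuasR to count reads by where they begin within RefSeq exons; whether strand was used is not given in the sources used here. The deposited values are raw counts per gene with Entrez identifiers and exon lengths. Symbols came from RefSeq (GRCm38.p6): 24374 of 24454 identifiers matched, and those without a symbol held 0.358% of the counts.

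All 14 libraries were fitted in R 4.3.3 with edgeR 4.0.16 (filterByExpr by population, 15125 genes, TMM factors of 0.957 to 1.06, quasi-likelihood F test, a mean for each population). The contrasts set each population against the mean of the other 4 and 3 populations against the preceding one, and a joint F test took 4 contrasts together. P values were adjusted by Benjamini-Hochberg over all tested genes, and the limits for a call were an adjusted p of up to 0.1 and a log2 fold change of at least 1.2 (the study sets the same values, on a P not said to be adjusted). In the joint test the fold limit applies to the range of the fitted means. The standard error is the size of the log2 fold change divided by the square root of F. CPM use the scaled totals, log2 CPM a prior count of 2, and RPKM the deposited exon lengths. Up to 3 counts (0.101 to 0.149 CPM) were treated as possible absence, a floor for counting error only. The labels do not say that replicates are separate litters, so p values measure the spread between these pools. Replicates differed by more than sampling noise (chi-square per degree of freedom of 8.2 to 81.1).

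Replicate numbers were not used as pairs. Exon overlaps and shared 50-base words were taken from the GENCODE M21 annotation of GRCm38, promoters from RefSeq. Besides *P3h2*, *Ppib* and *Plod3*, antisense exons overlapped 11.6% of the exon bases of *Loxl3*, 11.4% of *Colgalt1* and 8.9% of *Sec23a*. In the remaining genes they overlapped at most 6.58%. The 35 genes, the other lists and the markers were chosen with earlier results of these data known. Given in every library are, for each role, up to 3 genes called in the joint test, by the range of their population means; of each other list the 2 genes with the widest range among those called are described. *Adamts14* was named after its call was seen. Summed markers of other cells were at most 15.8 CPM for endothelium, 0.784 for leukocytes, 19.6 for ectoderm and 29.2 for neural crest and glia. On simulated data of 14740 genes, edgeR recovered 200 of 200 changed genes for CBs against the others, with 2 false calls. The changed genes lay above a count limit, their changes were well above the fold limit, and all genes had the same spread. Recovery near the fold limit or at few counts was therefore not tested. Alternatives were DESeq2 1.42.0 (size factors and test), library totals, other filters and limits, the replicate block, fits to pairs alone, and libraries left out. Tables and figures were made with Python 3.11.15, pandas 2.3.3 and matplotlib 3.10.9.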

Additional observations from a re-analysis of the deposited data

How the results depend on the processing

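Without the limit on the fold change the number of called genes rose in every comparison (in parentheses the share of all tested genes): to 23 for S9-JAG1+ cells (49.9%), 12 for S9-Pαhi cells (15.6%), 17 for OCPs (28.5%), 28 for CBs (65.0%) and 24 for S9-SCA-1+ cells (46.4%), each against the other 4, to 15 (28.1%), 12 (20.1%) and 24 (34.8%) for the steps from S9-JAG1+ to S9-Pαhi cells, to OCPs and to CBs, and to 32 in the joint test (74.8%), since the fold limit alone was dropped. With a filter at a mean of 1 CPM, *Loxl4* was no longer tested and its 5 calls dropped out: 6 genes were called in S9-JAG1+ cells instead of 7, 1 in OCPs instead of 2, 6 from OCPs to CBs instead of 7 and 14 in the joint test instead of 15, while from S9-JAG1+ to S9-Pαhi cells *Creb3l1* (1.202) took its place among 4. When each library was left out in turn, the number called was 6 to 8 for S9-JAG1+ cells, 1 for S9-Pαhi cells, 2 to 4 for OCPs, 8 to 10 for CBs, 4 to 5 for S9-SCA-1+ cells, 4 to 5, 2 and 5 to 7 for the 3 steps and 13 to 15 in the joint test. The 4 genes in OCPs came from the fit without the third OCP library, in which *P4ha3* (-1.36) and *Lox* (-1.48) were also called lower. Of the 36 calls of a gene against other populations, 31 were kept in each of the 24 alternatives that tested the gene, and none reversed; lost in some were *Creb3l1* in S9-JAG1+ cells, *Fkbp14* in CBs, *Loxl1* from S9-JAG1+ to S9-Pαhi cells, and *Sec24d* and *Tll1* from OCPs to CBs. Without the 3 libraries that stand apart, chosen after the data were seen, 6 genes were called from OCPs to CBs and 15 in the joint test. Of 26 same-numbered pairs of libraries, 4 had a correlation over 0.1, with a range of -0.18 to 0.31. S9-JAG1+ with OCP had 0.31 for number 1 and 0.22 for number 2. S9-Pαhi with OCP had 0.29 for number 2, and S9-Pαhi with CB 0.12 for number 3. Whether same-numbered libraries of the stage E10.5 came from shared pools was not tested. With the replicate block, *Creb3l1* was also called from S9-JAG1+ to S9-Pαhi cells (1.22, against 1.19 without it), as in several other alternatives, and no call was lost. Genes with few counts, such as *Loxl4* and *Colgalt2*, are limited by depth, and the S9-SCA-1+ comparisons by 2 libraries.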
